A study of Mus musculus with 2 samples.

Results

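The probes described here are the 1199 probes of a mouse Agilent gene expression array whose systematic name is an interval of chromosome 1 with a strand letter, out of 55681 probes other than controls. A further 14995 probes are named by intervals of other chromosomes, and 39487 by a transcript or other identifier. On each of 2 arrays, RNA of WT B6C3F1 mouse embryonic stem cells (ESCs), labelled with Cy3, was hybridised together with RNA of B6C3F1 ESCs labelled as carrying HDAC6 overexpression, labelled with Cy5. Both kinds of cell were at passage 26 and grew on feeders, mouse embryonic fibroblasts treated with mitomycin C, which can contribute RNA, in medium with serum and the cytokine LIF. HDAC6 is a mainly cytoplasmic deacetylase of tubulin and other proteins, and the series set ESCs labelled as overexpressing it against WT ESCs. How the overexpression was made, and whether the cells were 1 clone, is not given in the sources used here.

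Much of the mammalian genome outside protein-coding genes is transcribed. Long intergenic noncoding RNAs are one class of such transcripts, and many were first mapped as chromatin domains that carry the histone marks of an active promoter and a transcribed gene body. ESCs express many of them, some of which were found to take part in keeping the pluripotent state. Probing both strands of an interval shows which strand yields RNA when the strand of the transcript is not known beforehand. The files pair these probes with no gene, and no annotation of the array's build was used here. Whether an interval holds an exon of a coding gene was therefore not examined, and the probes are called region probes.

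The 1199 probes lie in 269 intervals between base 4889810 and base 196865102 of chromosome 1 in the mouse build mm9. Interval lengths run from 87 to 246380 bases with a median of 6469, and 75 intervals are shorter than 1 kb. Of the probes, 585 are marked F and 614 R, taken here as the forward and reverse strand. In 83 intervals both strands are probed, in 90 only F and in 96 only R, which makes 352 combinations of interval and strand (stranded intervals) with 1 to 10 probes each and a median of 3. Probes of 1 interval can read the same transcript, and many intervals overlap, so the probes are not independent of each other.

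Well above background in at least 1 channel on each array were 720 of the 1199 probes (60.1%; 356 F and 364 R), in 201 intervals and 267 stranded intervals. The same share was 61.6% among region probes of other chromosomes and 72.2% among the remaining probes. Of the 479 probes left out, 431 were dim in both channels on both arrays and 48 on 1 array only. Of the 720, 662 were above background in both channels on both arrays. The median WT signal of the 720 was 255 in replicate 1 and 286 in replicate 2, and the median signal of the overexpression channel was 329.7 and 358. Among region probes of other chromosomes these medians lay closer together, at 252 and 272 for WT against 266 and 275 for overexpression. All signals are Agilent processed intensities in arbitrary units, and they set no probe against another.

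Region probes of chromosome 1 were mostly higher in the overexpression channel. Their median log2 ratio of overexpression over WT was 0.37 in replicate 1 and 0.34 in replicate 2, a mean ratio of 0.35 with an SD of 0.026 between the medians of the 2 arrays (1.27-fold). Region probes of the other chromosomes had medians of 0.13 and 0.089, and all 38472 probes tested had 0.02 and 0.013. Tested with limma over all 38472 probes, 371 of the 720 were higher at an adjusted p under 0.05 and 35 were lower, which leaves 314 called in neither direction. Calls higher thus made up 51.5%, where the background was 22.8% of all probes and 27.2% of the region probes of other chromosomes. Calls lower made up 4.86%, against 22.7% of all probes and 17.8% of the other region probes. Of the 720 mean ratios, 608 (84.4%) were above 0, against 60.7% among the other region probes.

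The fit had 1 residual degree of freedom beside 4.62 prior ones, and its p-values measure only the spread between these 2 arrays, which the labels call biological replicates without naming separate cultures. Both arrays have the same dye orientation, so a dye effect cannot be told apart from the comparison of the cells. No test of chromosome 1 against the other chromosomes was made over probes, and flipping signs over 2 arrays cannot give an exact two-sided p below 0.5. The difference of the medians from those of the other region probes was 0.24 in replicate 1 and 0.25 in replicate 2.

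The arrays gave similar values for the single probes. Across the 720 probes their ratios correlated with r = 0.857 and rho = 0.809, a description over probes that share arrays, dyes and in part transcripts. The sign was the same on both arrays for 613 probes (85.1%). The SD between arrays had a median of 0.127 over the probes, while the mean ratios themselves had an SD of 0.54 and a median SE of 0.105. The lower and upper quartile of the mean ratio were 0.12 and 0.65, and the extremes were -1.53 and 3.82.

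**Figure D1:**
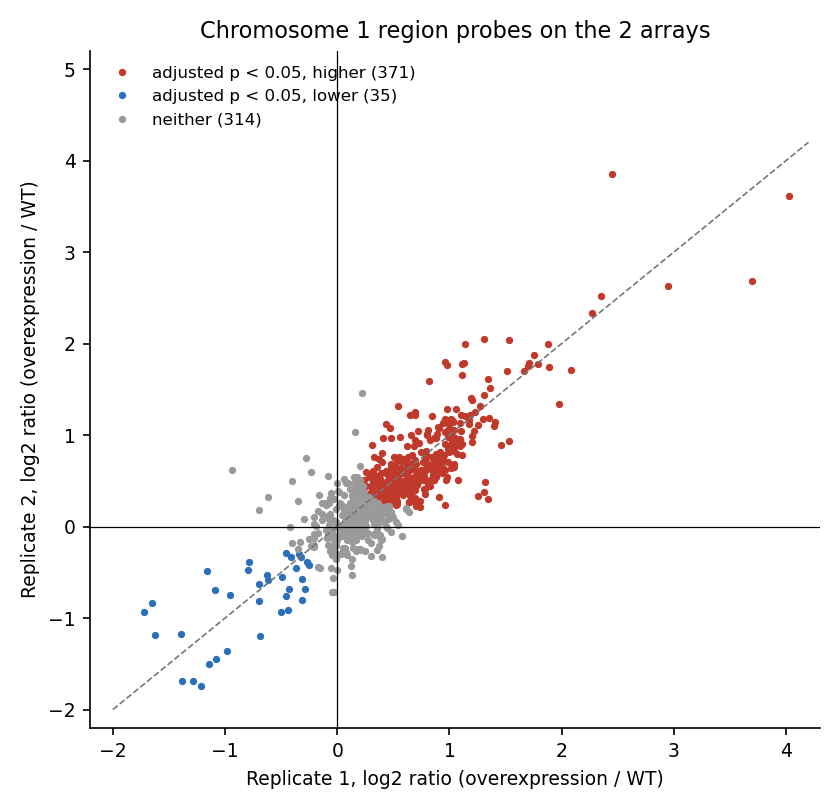
Log2 ratio of overexpression over WT of the 720 tested chromosome 1 region probes in replicate 1 (x axis) and replicate 2 (y axis); each point is a probe, coloured by its limma call at an adjusted p under 0.05, and the dashed line marks equal values. Most points lie above 0 on both axes, and the 371 probes called higher outnumber the 35 called lower.

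Larger changes were fewer. At least 2-fold higher on both arrays were 51 of the 720 probes, in 35 stranded intervals. The shares elsewhere were 2.72% of all probes and 2.24% of the other region probes. At least 2-fold lower were 7 of the 720, in 5 stranded intervals, against 3.54% and 2.82%. All 58 were also past the limma threshold. Of the 51 higher probes, 32 were above background in both channels on both arrays, and 16 were not above background in WT on either array. Of the 7 lower probes, 4 were above background in both channels on both arrays. A further 2 were not above background in the overexpression channel on either array. The filter fixes the direction of these 16 and 2 probes, so their calls do not count as support. On chromosome 1, 662 tested probes were above background in both channels on both arrays. Of 8361 such region probes on other chromosomes, 97 were at least 2-fold higher and 175 lower. The counts of 51 and 7 depend on the processing. An alternative used the raw signals in place of the processed ones, with normexp background correction, which added an offset of 50 to both channels, and loess. With it, 12 probes were at least 2-fold higher and 4 lower.

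The shift was spread over the length of the chromosome. In 10 windows of 20 Mb, the median ratio lay between 0.10 and 0.50. It was 0.50 in the fourth window (60 to 80 Mb), where 68.7% of 83 probes were called higher and 0 lower. In the ninth (160 to 180 Mb) and the tenth (180 to 200 Mb) the medians were 0.47 over 107 probes and 0.46 over 89. The lowest was that of the eighth window (140 to 160 Mb), at 0.10 over 28 probes in 8 intervals, with 21.4% called higher. That value lies at the median of 0.11 for region probes of the other chromosomes. The first window differed most between arrays, with 0.39 in replicate 1 and 0.11 in replicate 2 over 24 probes. Calls lower reached their largest share, 9.92% of 131 probes, in the seventh window (120 to 140 Mb), whose median was 0.41.

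**Figure D2:**
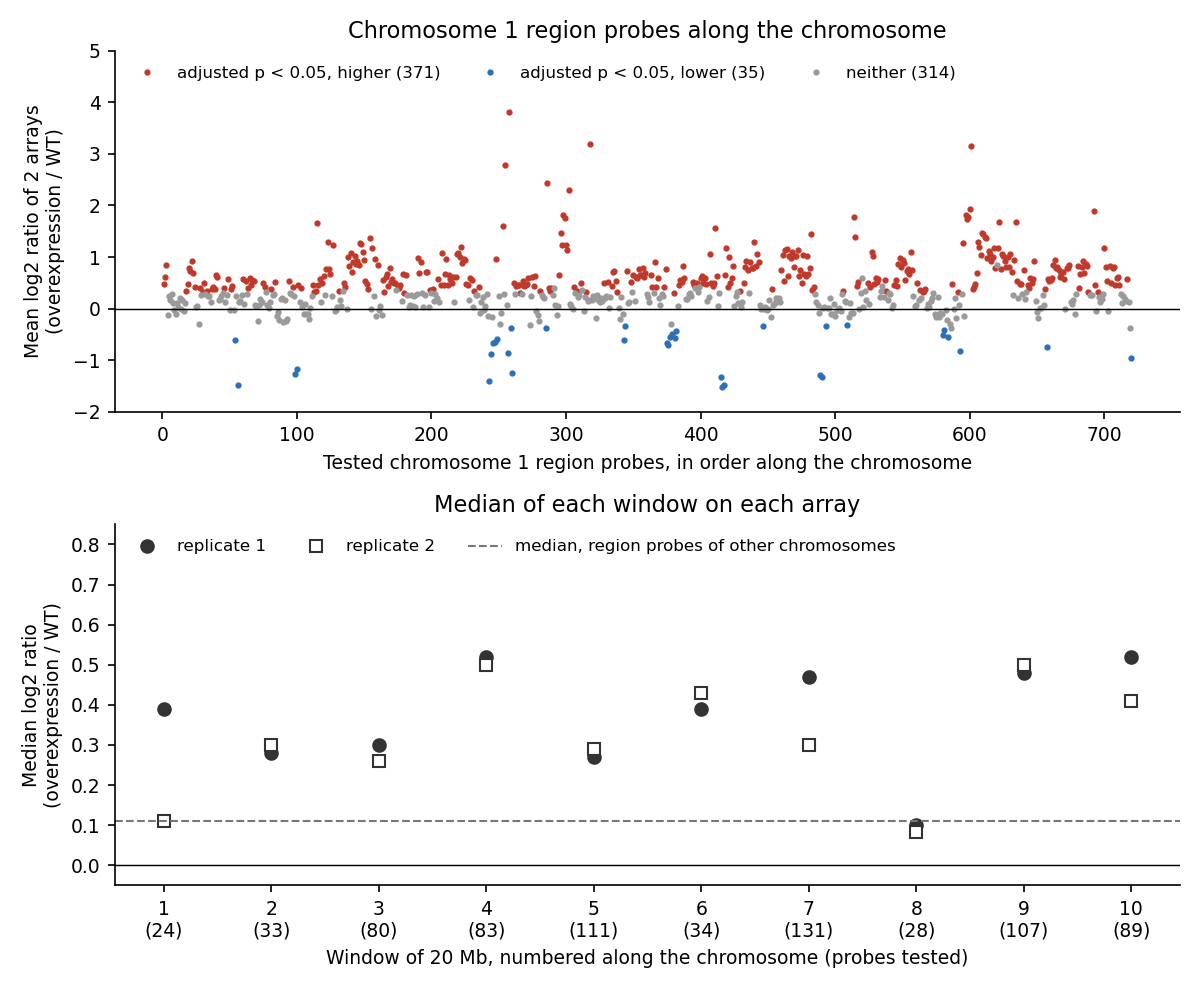
Upper panel: mean log2 ratio of the 2 arrays (y axis) of the 720 tested region probes in their order along chromosome 1 (x axis), coloured by limma call. Lower panel: the median log2 ratio of each 20 Mb window in replicate 1 (filled circles) and replicate 2 (open squares), with the median of region probes of other chromosomes as a dashed line; over both arrays 9 windows have a median above that line, and the eighth, at 0.10, does not.

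The shift was also measured with overlapping intervals counted once. The tested intervals form 135 loci that do not overlap each other, and the median over the medians of these loci was 0.33 in replicate 1 and 0.28 in replicate 2. In 102 loci (75.6%) the median was above 0 on both arrays, and in 14 (10.4%) it was below 0 on both. For 1650 loci of other chromosomes these shares were 57.2% and 26.4%. Over the 267 stranded intervals the median of the mean ratio was 0.32, and 225 (84.3%) were above 0, against 63.9% of 3345 on other chromosomes. At least 1 probe was called higher in 154 stranded intervals (57.7%, against 40.7% elsewhere), and at least 1 lower in 22 (8.24%, against 23.7%). Of the 170 with 2 or more tested probes, all tested probes were called higher in 59 (34.7%, against 11.4%) and lower in 4 (2.35%, against 9.16%), and 3 held calls in both directions. Probes of 1 stranded interval had a median SD of 0.155 around each other, taken over their mean ratios of 2 arrays. The SD between arrays, averaged over the probes of an interval, had a median of 0.134. It is taken over single arrays, so the 2 values are not like measures.

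The shift was measured in every quartile of probe brightness. The quartiles of the mean signal of the 720 probes meet at 119, 289.7 and 1165. From the dimmest to the brightest quartile the median ratio was 0.31, 0.35, 0.40 and 0.39 on chromosome 1, and 0.10, 0.13, 0.12 and 0.11 for region probes of other chromosomes in the same ranges of signal. The 662 probes above background in both channels on both arrays had a median of 0.34, against 0.11 for such probes elsewhere. Of these 662, 50.8% were called higher and 4.23% lower, against 25.9% and 16.4%. Longer intervals had higher ratios on chromosome 1, and region probes of other chromosomes were not split by length. The median was 0.23 for 81 probes of intervals under 1 kb, 0.29 for 183 probes of intervals from 1 to 10 kb and 0.41 for 456 probes of intervals of 10 kb and over. Calls lower made up 12.3% of the first group and 4.17% of the last. Across the 267 stranded intervals the rank correlation of the mean ratio with the length was 0.19, given as a description.

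Of the 20 chromosomes compared, chromosome 1 had the highest median among region probes. Chromosome 14 came next with 0.27 (0.27 and 0.26 on the arrays) and chromosome 16 with 0.25, and the lowest was that of chromosome 11, at -0.21. On both arrays the medians of chromosome 1, 0.37 and 0.34, lay above every other chromosome's. It stayed the highest under each of 8 alternative settings for the normalization and the filter on dim probes, with medians from 0.21 to 0.35, while the next chromosome had 0.12 to 0.27. Probes paired with a RefSeq gene gave the same place to chromosome 1. With 1 probe per gene, 909 genes of chromosome 1 had a median of 0.25 (0.26 and 0.23), and 40.4% were called higher and 11.4% lower. Every other chromosome had a gene median below 0, from -0.0049 on chromosome 15 down to -0.51 on chromosome 11. In 10 equal parts of the gene order, the chromosome 1 genes had medians from 0.18 to 0.42, and all were above 0 on both arrays. The files hold no measure of DNA copy number, and its part in these values was not tested.

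**Figure D3:**
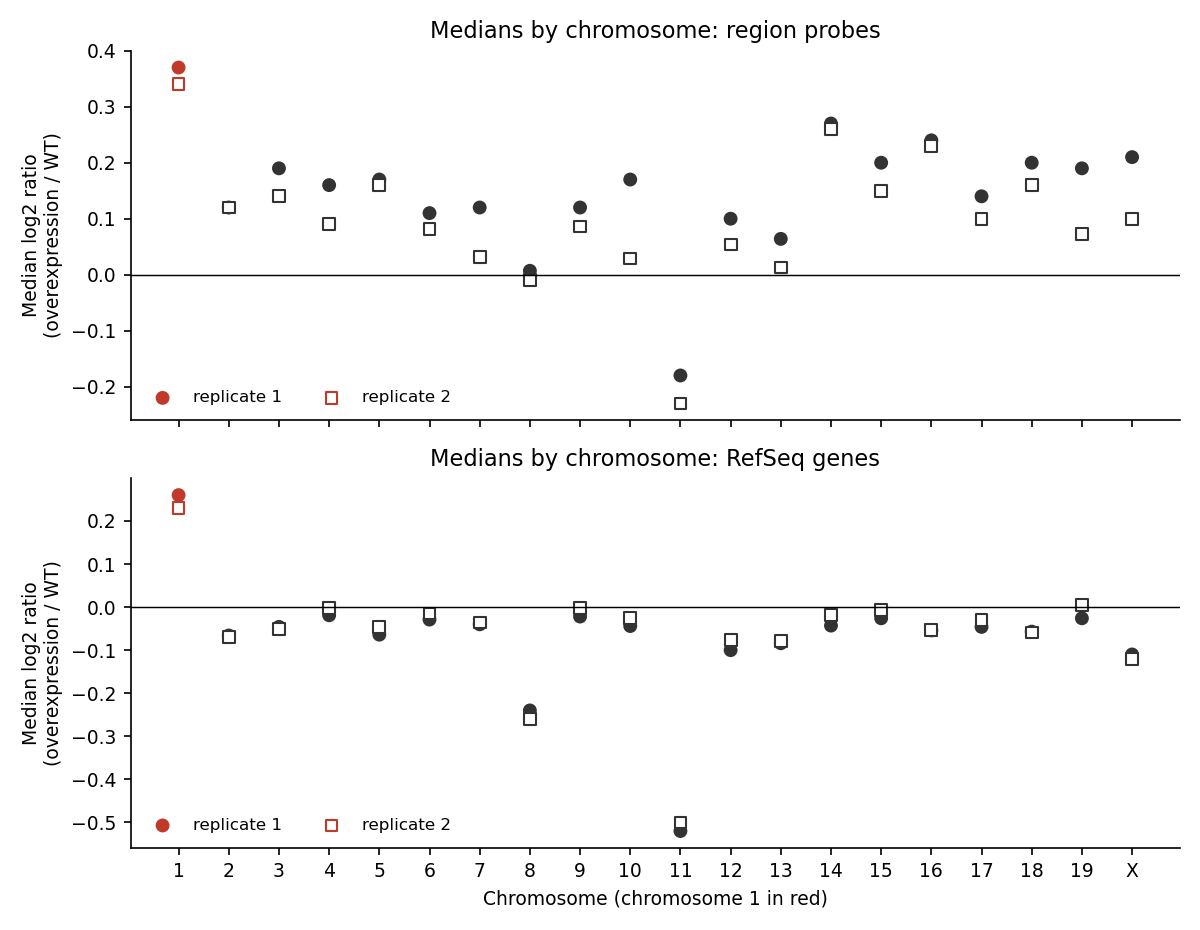
Median log2 ratio of overexpression over WT (y axis) by chromosome (x axis) for region probes (upper panel) and for RefSeq genes with 1 probe each (lower panel), in replicate 1 (filled circles) and replicate 2 (open squares). Chromosome 1, in red, is the highest in both panels on both arrays, and chromosome 11 is the lowest.

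Markers of other cell types were higher in the overexpression channel as well, while pluripotency markers went in both directions. Of all probes tested, 22.8% were called higher and 22.7% lower. All 12 primitive endoderm markers (genes of an extraembryonic lineage of the blastocyst) were called higher, with a median ratio of 3.21 and summed WT signals of 20771 and 23368 against 159724 and 165399.6 in the overexpression channel. Of 12 fibroblast markers, 11 were called higher and 0 lower, with medians of 0.92 and 1.52. Their summed signals were 85694 and 77594 in WT against 174687 and 231115. The 10 pluripotency markers had a median of 0.047, with 2 called higher and 3 lower, and their summed signals were 201054 and 216058 in WT against 184406 and 200993. None of these 34 markers was below background in WT on both arrays. In RNA of mixed cells, more cells of a type and more RNA per cell cannot be told apart, and the part of feeder or endoderm RNA in the region ratios was not tested. Hdac6 itself had 2 probes with ratios of 0.18 and -0.0055 (mean 0.089 ± 0.13 SD, n = 2 arrays, limma adjusted p = 0.52) and of 0.16 and -0.038 (0.06 ± 0.14, adjusted p = 0.67), so the overexpression is known from the labels only.

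A large rise at signals well above background in both channels on both arrays was measured at chr1:169026196-169032664 (mm9, F). Its brightest probe read 8269 and 8152 in WT and 27849 and 29993 in the overexpression channel. The ratio was 1.82 ± 0.09 (SD, n = 2), or 3.52-fold, with limma adjusted p = 3.2e-04. All 4 probes of this 6469-base interval lay between 1.73 and 1.94, so the probes differed little from each other and their WT and overexpression signals did not overlap.

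The interval chr1:92412246-92423471 (R) was higher at 4 of 4 tested probes, of 5 on the array, with ratios from 1.13 to 2.30. Its brightest probe read 79.1 and 92.7 in WT against 258 and 321, a ratio of 1.75 ± 0.06 (adjusted p = 3.4e-04), which was 1.17 after normexp and loess. On F, 4 of 4 tested probes were called higher too, at 0.65 to 1.81. The probe at 2.30 was not above background in WT and is only a bound, given below. A single probe marks chr1:138579972-138587381 (F), which read 1093 and 1181 in WT against 2808 and 3369, a ratio of 1.44 ± 0.11 (adjusted p = 6.3e-04).

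Both strands were higher over chr1:175654606-175672031. The brightest F probe read 292 and 314 in WT and 631 and 994 in the overexpression channel (1.39 ± 0.39, adjusted p = 0.0019). The brightest R probe read 982 and 1328 against 2097 and 2912 (1.11 ± 0.027, adjusted p = 0.0011). All 5 probes of each strand were called higher, at 0.99 to 1.46 on F and 0.93 to 1.18 on R. Inside it, chr1:175660642-175671878 (R) had 2 of 3 probes called higher, the brightest at 1.17 ± 0.17 (adjusted p = 0.0013).

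A second interval with both strands higher was chr1:63163023-63180223, in the window of the highest median. On R, 7 of 7 probes were called higher, at 0.48 to 1.28, and the brightest read 1633 and 1981 in WT against 4351 and 4366 (1.28 ± 0.19, adjusted p = 0.0011). On F, 5 of 5 were called higher, at 0.70 to 1.02. The F probe at 1.02 and the R probe at 0.53 were not above background in WT on either array. The filter fixes their direction, so these calls do not count as support. Both strands of chr1:152001112-152012796 were higher at the 1 tested probe of each, with 1.78 ± 0.36 on F (adjusted p = 8.9e-04) and 1.38 ± 0.59 on R (adjusted p = 0.0044). The F probe was above background in WT on 1 of the arrays only, as was the 1 probe of chr1:85300475-85331475 (F), at 1.61 ± 0.14 (adjusted p = 5.0e-04). All 3 were smaller after normexp and loess, at 0.74 and 0.84 for the F and R probe of the former interval and 0.58 for the latter.

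The largest processed ratios, by contrast, rest on WT signals that were not well above background. For 26 probes this held on both arrays. They passed the filter through the overexpression channel, which fixes their direction, so neither their calls nor the adjusted p beside their bounds count as support. For them a lower bound of the change was computed from the single channels. The raw signals were corrected by normexp with the offset of 50. They were then normalized within arrays by loess and between arrays by limma's Aquantile method. The dim channel was set at the lowest signal among probes well above background, or at its own level where that was higher. Such bounds are open to dye bias. The ratio of 3.82 at 1 R probe of chr1:87343550-87362900 became at least 2.1-fold higher (adjusted p = 8.6e-05), and that of 3.19 at 1 R probe of chr1:94608820-94634671 at least 2.3-fold (adjusted p = 6.8e-04). These were the only bounds of 2-fold or more. By their bounds the single tested probes of chr1:173250734-173259306 (R) and chr1:88405875-88418150 (R) were at least 1.87-fold (adjusted p = 0.0014) and at least 1.36-fold higher (adjusted p = 1.4e-04). The bound was 1.63-fold at chr1:182180931-182186106 (R), 1.59-fold at 1 probe of chr1:92412246-92423471 (R) and 1.55-fold at chr1:193755364-193770539 (R). Because they are bounds, their order against the intervals above is not known.

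Lower in the overexpression channel was, first, chr1:135956616-135957485 (R), an interval of 870 bases. Its brightest probe read 1649 and 1801 in WT and 749 and 638 in the overexpression channel, a ratio of -1.32 ± 0.25 (adjusted p = 0.0013). All 3 probes were called lower, between -1.53 and -1.32, and the channels did not overlap at any of them. At chr1:53215418-53244461 (R) both probes were called lower. The brighter one read 5391 and 6404 in WT against 2544 and 2345, a ratio of -1.27 ± 0.26 (adjusted p = 0.0015), and the other had -1.17.

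Smaller decreases were found at chr1:133839368-133839762 (F), where 3 of 3 probes were called lower, between -0.71 and -0.55. The brightest of them read 2116 and 2743 in WT against 1565 and 1464. At chr1:166409457-166434750 (R) 2 of 2 probes were called lower, at -0.52 and -0.41. Single called probes were those of chr1:87348082-87409907 (F) at -1.25 ± 0.57 (adjusted p = 0.0054), chr1:183781704-183783320 (R) at -0.75 ± 0.077 and chr1:167219841-167220505 (F) at -0.56 ± 0.17. After normexp and loess these had -0.82, -0.26 and -0.37. Not above background in the overexpression channel on either array were 5 probes, whose direction the filter likewise fixes. Their bounds were 1.5-fold at chr1:38892041-38893543 (R), 1.47-fold and 1.43-fold at 2 probes of chr1:139795171-139796306 (F), 1.32-fold at chr1:196843592-196865102 (F) and 1.2-fold at chr1:167797702-167798519 (R). The last of these lost its call after normexp correction, with adjusted p = 0.082 after loess and 0.067 with median centring.

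The 4 brightest region probes had mean ratios from -0.039 to 0.69. The brightest, in chr1:173468300-173489200 (R), read 25358 and 36658 in WT and 46044 and 52356 in the overexpression channel (0.69 ± 0.24, adjusted p = 0.008). In chr1:183783306-183834531 (F) the brightest probe had 0.53 ± 0.13 (adjusted p = 0.011), and all 10 probes were called higher, between 0.53 and 0.94. The brightest probes of chr1:193875525-193978800 (R) and chr1:45800000-45834825 (R) had -0.039 ± 0.15 and 0.015 ± 0.055 and passed no threshold (adjusted p = 0.79 and 0.91).

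Of the 42 loci made of 2 or more overlapping intervals, 36 had a median above 0 on both arrays (85.7%) and 1 below 0 on both, against 53.3% and 30.9% of 585 such loci on other chromosomes. Between bases 138567345 and 138632310, 4 overlapping intervals hold 25 tested probes, and all 25 were called higher, with a median of 0.81 (0.91 and 0.83 on the arrays). A neighbouring run of 6 intervals between bases 138442536 and 138521227 had a median of 0.78 over 16 probes, 12 of them called higher and 0 lower. The 12 include the probe of chr1:138499609-138502045 (R) and 1 probe of chr1:138473514-138476054 (R), not above background in WT on either array. The filter fixes the direction of such probes. The intervals of this run were not alike, since chr1:138442536-138520766 had means of 0.16 on F and 0.12 on R. The tested intervals that lie between these runs were looked up after the values of the runs were seen. In chr1:138546641-138558591 the 1 tested F probe had 0.21 and the 1 tested R probe 0.13, and neither was called. The other interval there was chr1:138528250-138538250. Its 7 F probes had a mean ratio of -0.039 and its 7 R probes 0.13. Of the 14, 1 was called higher and 1 lower. In the run from base 183781704 to base 183834531, 16 of 18 probes were called higher and 1 lower, with a median of 0.69. A run of 6 intervals from base 139713316 to base 139913366 had a median of only 0.014 over 12 probes, 0 called higher and 3 lower. The 2 lower calls at chr1:139795171-139796306 (F) came from probes not above background in the overexpression channel on either array. The filter fixes the direction of such probes, so these 2 calls do not count as support.

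Strands differed little as groups. The 356 F probes had a median of 0.40 (53.9% called higher, 4.49% lower) and the 364 R probes 0.32 (49.2% and 5.22%). For region probes of the other chromosomes these medians were 0.13 and 0.092. Of the 83 intervals probed on both strands, 66 had tested probes on both. In 52 of them both strand means were above 0, in 2 both were below 0, and in 12 the signs were opposite. The median difference of F minus R was 0.046.

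Within intervals, the difference between the strands was tested with limma over all 865 intervals of the array with both strands. It was called in 10 of the 66 on chromosome 1 (15.2%), 4 with F higher and 6 with R higher, where the background over all intervals was 24.0%. The share on chromosome 1 was thus no larger than elsewhere. The test was added after the data were seen, and its count ran from 0 with every probe kept to 22 after normexp correction. With 0 calls, 24 of 83 intervals had an unadjusted limma p under 0.05.

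Of the called strand differences with all probes above background, the one resting on the most probes was in chr1:107866276-107887102, where 7 F probes had a mean ratio of 0.43 (0.42 and 0.43) and 5 R probes -0.21 (-0.19 and -0.22). The difference of 0.63 had an SE of 0.079 (adjusted p = 0.021). A similar pattern, F above 0 and R below, was measured in chr1:52507332-52514490, with 0.51 at 1 F probe and -0.15 over 3 R probes (adjusted p = 0.023), and in chr1:134167181-134181386, with 0.31 at 1 F probe and -0.32 over 3 R probes (adjusted p = 0.022). The fourth was chr1:88339354-88345004, where 3 F probes had a mean of 0.17 and 3 R probes 0.56 (adjusted p = 0.043). These 4 were singled out by the background mark after their values were seen.

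Larger differences were called where a probe was not above background in a channel. In chr1:88405875-88418150 the F probe had -0.37 and the R probe 2.44 (adjusted p = 0.0025), and in chr1:87343550-87362900 F had -0.86 and R 1.72 (adjusted p = 0.0066). The next were chr1:94608820-94634671, with 0.15 on F and 1.17 on R (adjusted p = 0.016), and chr1:193755364-193770539, with 0.26 on F and 1.17 on R (adjusted p = 0.021). Each of these 4 R means includes a probe that has only a bound, so the size of these differences is uncertain. The filter fixes the upward direction of these bounded probes, so the 4 strand calls do not count as support. In chr1:88405875-88418150 the bounded probe is the only tested R probe. In chr1:85117750-85129200 the 4 F probes had a mean of -0.78 and the 4 R probes -0.0092 (adjusted p = 0.026). The R mean there hides opposite calls, with 2 probes lower, the brighter at -0.59 ± 0.28 (adjusted p = 0.015), and 1 higher at 0.96. The brightest F probe had -0.89 ± 0.28 (adjusted p = 0.0044).

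**Figure D4:**
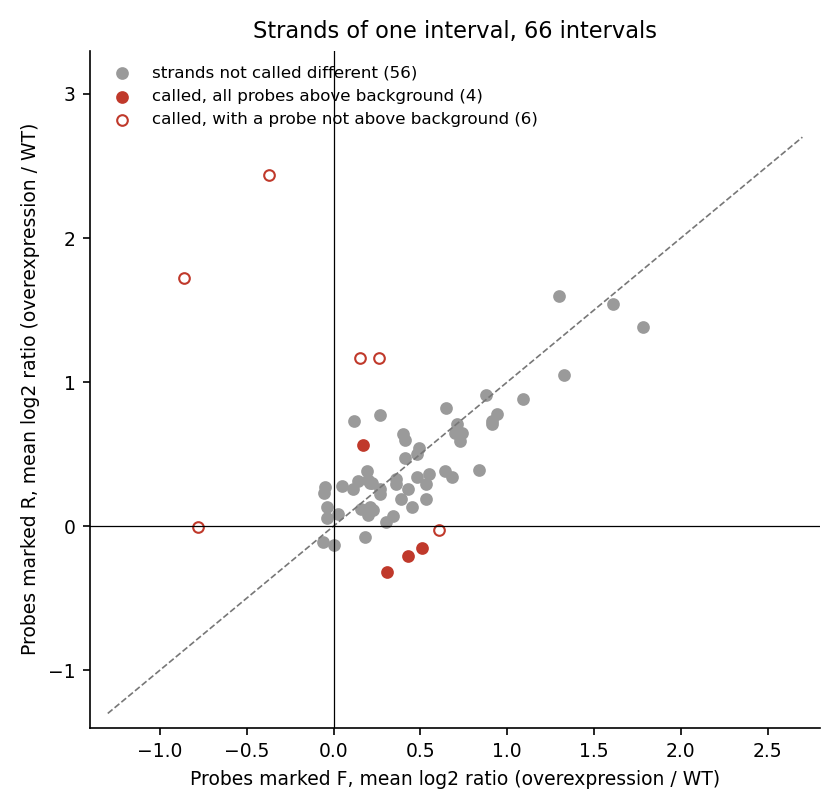
Mean log2 ratio of overexpression over WT of the F probes (x axis) and the R probes (y axis) of the 66 chromosome 1 intervals with tested probes on both strands. Each point is an interval, red where limma called the strands different and grey elsewhere. Red points are open where a probe was not above background in a channel on an array, and all grey points are filled whether or not this held. Most points lie near the dashed line of equal values, and the farthest from it, such as the interval with -0.37 on F and 2.44 on R, are open.

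Probes of 1 strand could also disagree. On R of chr1:87343550-87362900 the ratios were -0.37 ± 0.12 (adjusted p = 0.033), at a probe reading 71.3 and 77.2 in WT, and 3.82 at a probe that is only a bound. The first lost its call after normexp and loess (-0.17, adjusted p = 0.14), after normexp and median centring (adjusted p = 0.12), without a filter (adjusted p = 0.066) and with an intensity trend (adjusted p = 0.11). The F probe of this interval read 259.9 and 279 in WT against 134 and 165, a ratio of -0.86 ± 0.15 (adjusted p = 0.0028). On R of chr1:94608820-94634671, 2 probes had 0.16 and the third 3.19. On R of chr1:85300475-85331475 the probes had 0.29 and 2.79, and on R of chr1:38892041-38893543 0.25, -0.61 and -1.48. In each of these 4 intervals the extreme value came from a probe that was not above background in 1 channel on both arrays.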

How the data were processed

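The authors quantified the scans with Agilent Feature Extraction 11.5.1.1, on a grid of build mm9 (NCBI 37), per the file headers. The deposited files hold raw intensity values, and processed intensity values that per the file headers are background-subtracted and dye-normalized, with their log10 ratio. The deposited series table holds log2 ratios; set against the scanner files it runs as WT over overexpression (r = -1, slope -1, column medians -0.00735 and 0.0624). Here log2 of processed Cy5 over Cy3 was used.

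Outlier-marked spots (269 and 313) were left out, 0 were saturated, and spots of a probe were averaged. Probes well above background in at least 1 channel on each array were tested with limma 3.58.1 (R 4.3.3; lmFit and eBayes, intercept only, two-sided, Benjamini-Hochberg over all 38472), a procedure tested on simulated data. The number of arrays limits the precision; copies of a probe differed by an SD of 0.0349 and 0.0355. Both arrays lie on 1 slide. Of 39487 probes without a region name, 26762 matched a RefSeq symbol (GRCm38.p6, used for names, chromosomes and order only), giving 16082 genes, each by its brightest tested probe.

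Members and lists were chosen with earlier results of these data known. Named are the 12 highest and 12 lowest called ratios (the brightest probe of a stranded interval), the 6 largest strand differences, up to 6 bounds in each direction, the 4 brightest probes, the 4 stranded intervals of widest spread and 4 runs of overlapping intervals; exceptions are stated. Alternatives were other background corrections, centrings, sources, filters, an intensity trend and single arrays.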

Additional observations from a re-analysis of the deposited data

How the results depend on the processing

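Under the alternative settings the calls higher numbered 344 to 376 and the calls lower 29 to 42, all within 1.5 times the main counts, and 0 of the 24 named regions changed sign. The log2 ratio of 11 of them moved by over 1.5 times after normexp, among them the bounded probes of chr1:173250734-173259306 (1.01 after loess) and chr1:88405875-88418150 (0.51). With normexp and loess, 12 probes were at least 2-fold higher and 4 lower, the chromosome 1 median was 0.25 and its excess over the other region probes 0.19 (main 0.23), and 22 strand differences were called. With normexp and median centring these were 18, 4, 0.22, 0.18 and 22. Requiring both channels above background gave 32, 4 and an excess of 0.23, with 14 strand calls. Without a filter the median was 0.21, the excess 0.20 and limma called 0 strand differences, 24 having an unadjusted p under 0.05. Single arrays, which allow no test, gave 79 to 80 probes higher and 9 to 11 lower, medians of 0.34 to 0.37 and an excess of 0.24 to 0.25. The cause of these changes was not tested. Of the named regions, 2 lost their call after normexp with loess, 2 with median centring, 1 without a filter and 1 with an intensity trend (chr1:87343550-87362900 R in each case, with chr1:167797702-167798519 R after normexp), and 5 were left out when both channels had to be above background. The excess and the strand test were added after seeing the data. Each ratio already pairs the WT and the overexpression RNA of 1 array, so no other block was fitted.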
